A study of Mus musculus with 8 samples.

Results

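The 8 genes described here encode receptors for the constant (Fc) part of IgG and signaling molecules of phagocytes. The receptors are the activating Fcgr1, Fcgr3 and Fcgr4 and the inhibitory Fcgr2b. The signaling molecules are the adaptors Fcer1g and Tyrobp, which also serve receptors other than those for IgG, and the kinases Syk and Lyn. The genes were chosen by symbol, and all 8 were found among the 15433 genes that the deposited table lists. RNA of gastrocnemius (GST) muscle came from female mice aged 6 months, 4 of them WT and 4 STIM1+/D84G, with 1 library each. STIM1 is the Ca2+ sensor of the sarcoplasmic reticulum that opens store-operated Ca2+ channels, and the D84G exchange in its EF hand keeps it active when stores are full. STIM1+/D84G mice are heterozygous for an A-to-G transition in exon 2 of Stim1 itself, and no cell-specific promoter or Cre driver is named for it. The methods give C57BL/6 mice matched for age and sex as the WT controls, whereas other passages of the study call the controls littermates. The labels call the mutant mice Sax, a name read as STIM1+/D84G from the title of the series. The labels name no treatment.

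The values are normalized counts, which are reads of a gene scaled by 1 size factor for each library. They carry no scaling by gene length, so levels of different genes are compared only after division by exon length. Between 27481177 and 35018732 reads fell in listed genes of a library, and 1 read was worth between 0.783 and 1.21 normalized counts. The tissue label was met by its defining transcripts, since all 8 markers of skeletal muscle were listed and together held 7247051 to 7858036 normalized counts in WT and 4075218 to 4780756 in STIM1+/D84G libraries. Stim1, the mutated gene, counted 7293 ± 167 in WT and 5413 ± 264 in STIM1+/D84G muscle (SD, n = 4 mice each). Its log2 fold change was -0.43 (adjusted p = 1.39e-05, limma), a call lost when libraries were scaled to the total of listed genes (adjusted p = 0.129, limma). The study reports no change of STIM1 expression in GST muscle, citing its protein blots. A whole-gene count does not show which allele its reads came from, so it does not check the labels. The column names carry a number of unstated meaning, which WT replicates 1 and 2 and D84G replicate 1 share, while the other 5 libraries share another.

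Fc gamma receptors bind antibody that coats particles, microbes and cell debris. Cross-linked activating receptors rely on the ITAM, a tyrosine motif of the paired adaptor: Src-family kinases such as Lyn phosphorylate it, Syk docks on it, and engulfment, an oxidative burst and cytokine release follow. Fcgr2b carries the opposing ITIM, which recruits phosphatases that stop the signal. In skeletal muscle these receptors are known mainly from resident and recruited macrophages, which clear damaged fibers.

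All 8 transcripts were higher in STIM1+/D84G muscle than in WT muscle. The fold of the group means ran from 1.66 for Lyn through 2.51 for Syk and 3.22 to 3.59 for Fcgr2b, Fcer1g, Tyrobp and Fcgr3, and up to 5.64 for Fcgr1 and 8.94 for Fcgr4. Of the 8, 8 were higher at an adjusted p under 0.05 (limma over all 15433 genes, Benjamini-Hochberg), beside 25.0% of all genes tested that were higher and 24.4% that were lower. In 8 of 8 every STIM1+/D84G mouse lay above every WT mouse, beside 23.0% of all genes in which the groups did not overlap in that direction. The members' median log2 fold change was 1.81, and that of all genes was 0.013. In bulk muscle, more cells of a type and more RNA per cell cannot be told apart.

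Among the activating receptors, Fcgr1 encodes FcγRI, the high-affinity IgG receptor of monocytes and macrophages. It counted 9.15, 10.8, 10.8 and 13.3 in the 4 WT mice and 45.2, 66.6, 59.8 and 77.5 in the 4 STIM1+/D84G mice. The lowest mutant value was 3.39 times the highest WT value. The means were 11.04 ± 1.71 and 62.3 ± 13.6 (SD, n = 4), a log2 fold change of 2.47 ± 0.22 (SE, adjusted p = 6.19e-06, limma).

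Fcgr3 encodes FcγRIII, a low-affinity receptor for immune complexes with the highest level per length of the 4 receptors. Its counts were 77.8, 56.6, 95.4 and 93.1 in WT and 206, 288, 297 and 368 in STIM1+/D84G muscle. WT replicate 2 was the low WT library and D84G replicate 4 the high mutant library, and the groups stood well apart. The log2 fold change was 1.84 ± 0.20 (SE, adjusted p = 2.22e-05, limma).

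Fcgr4 encodes FcγRIV, a mouse receptor of intermediate affinity that binds IgG2a and IgG2b. It was close to the limit of counting in WT, with 3, 4, 1 and 1 reads, against 27, 26, 17 and 34 reads in STIM1+/D84G libraries. In normalized counts these were 3.43, 4.82, 1.08 and 1.02 in WT and 25.9, 20.4, 16.4 and 30.0 in STIM1+/D84G muscle. The lowest mutant value was 3.40 times the highest WT value, although counting error was large in WT. Pooled over mice, 9 reads against 104 gave a ratio of 9.28 after scaling, with an exact 95% interval of 4.70 to 20.9 that covers counting error only. The log2 fold change was 3.37 ± 0.53 (SE, adjusted p = 3.57e-04, limma) and moved between 2.57 and 4.23 over the alternatives, the widest range of the 8.

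The inhibitory receptor Fcgr2b, which encodes FcγRIIb, rose with the activating ones. It counted 67.5, 77.1, 87.8 and 103 in WT and 154, 259, 299.8 and 370.0 in STIM1+/D84G muscle. D84G replicate 1 lay 1.49 times above the highest WT mouse, and the other mutant mice lay further off. The log2 fold change was 1.63 ± 0.23 (SE, adjusted p = 1.85e-04, limma). The inhibition runs through its ITIM, whose codons are given here from the GENCODE vM21 transcript, with the tyrosine codon in capitals:
Fcgr2b ITIM, residues 317 to 322: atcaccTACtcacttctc

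Fcgr2b and Fcgr3 are paralogs on the same chromosome, and their transcripts share long stretches. Of the 50-base words of Fcgr3 exons, 9.58% also occur in Fcgr2b, and 2.92% of the words of Fcgr2b occur in Fcgr3, of 6.95% that occur in any other gene. The longest shared run, of 129 bases, is given here because a read of 50 bases within it fits both genes, and how the authors' counting treated such reads is not given in the sources used here:
Fcgr2b and Fcgr3, shared run: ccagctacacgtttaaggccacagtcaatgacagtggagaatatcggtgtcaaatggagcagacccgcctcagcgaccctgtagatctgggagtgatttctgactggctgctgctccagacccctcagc
No 50-base word of Fcgr1, Fcgr4, Fcer1g, Tyrobp or Syk was found in another gene, whereas 18.3% of those of Lyn were, 13.4% in the pseudogene Gm11787. Values of Fcgr2b, Fcgr3 and Lyn therefore carry an uncertainty that the other 5 do not.

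The adaptors Fcer1g (the common Fc receptor gamma chain) and Tyrobp (DAP12) bring the ITAM to receptors that lack one. Fcer1g counted 43.4, 33.7, 28.2 and 46.1 in WT and 121, 136, 133 and 139 in STIM1+/D84G muscle. The mutant mice agreed closely, with a coefficient of variation of 5.94%, and the lowest of them held 2.63 times the count of the highest WT mouse. Tyrobp counted 56.0, 56.6, 53.1 and 59.4 in WT and 142, 197, 216 and 246 in STIM1+/D84G muscle. Here it was the WT mice that agreed closely, with a coefficient of variation of 4.54%. The log2 fold changes of the pair were nearly equal, 1.83 ± 0.16 for Fcer1g (SE, adjusted p = 6.15e-06) and 1.80 ± 0.15 for Tyrobp (SE, adjusted p = 4.63e-06, limma).

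The ITAM codons of both adaptors are printed because the rest of the pathway docks on them, with the codons of the paired tyrosines in capitals:
Fcer1g ITAM, residues 65 to 79: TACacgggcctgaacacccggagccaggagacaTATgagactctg
Tyrobp ITAM, residues 92 to 106: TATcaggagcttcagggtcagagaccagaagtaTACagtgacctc
Each motif takes 45 bases and sits near the end of a short protein, of 86 residues in Fcer1g and 114 in Tyrobp. The same search (a tyrosine, any pair of residues, leucine or isoleucine, and the same again after 6 to 8 residues) found no ITAM in any annotated coding transcript of the 4 receptors or of the kinases. Of the 2 coding transcripts of Fcer1g, 1 held it. The shorter ITIM pattern matched all 4 coding transcripts of Fcgr2b, but also transcripts of Fcgr1, Fcgr4, Fcer1g, Tyrobp and Lyn. A match to that pattern alone therefore does not mark an inhibitory receptor.

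Syk, the kinase that binds phosphorylated ITAMs, counted 122, 78.3, 121 and 148 in WT and 218, 246, 339 and 377 in STIM1+/D84G muscle, a log2 fold change of 1.33 ± 0.21 (SE, adjusted p = 3.75e-04, limma). Lyn, a Src-family kinase that phosphorylates ITAMs and ITIMs alike, counted 165, 157, 134 and 113 in WT and 233, 211, 242 and 255 in STIM1+/D84G muscle. The kinases were the members with the narrowest gaps: the lowest mutant value was 1.47 times the highest WT value for Syk and 1.28 times for Lyn. Lyn had the smallest log2 fold change of the 8, 0.74 ± 0.12 (SE, adjusted p = 4.29e-04, limma). An exact permutation test on each member, over the 70 ways to assign 4 of 8 libraries, gave p = 0.029 for all 8, the smallest 2-sided p it can give. Any gene whose groups do not overlap reaches this p, so it restates the lack of overlap. Of all genes, 23.0% were without overlap in the higher direction and 23.0% in the lower.

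**Figure D1:**
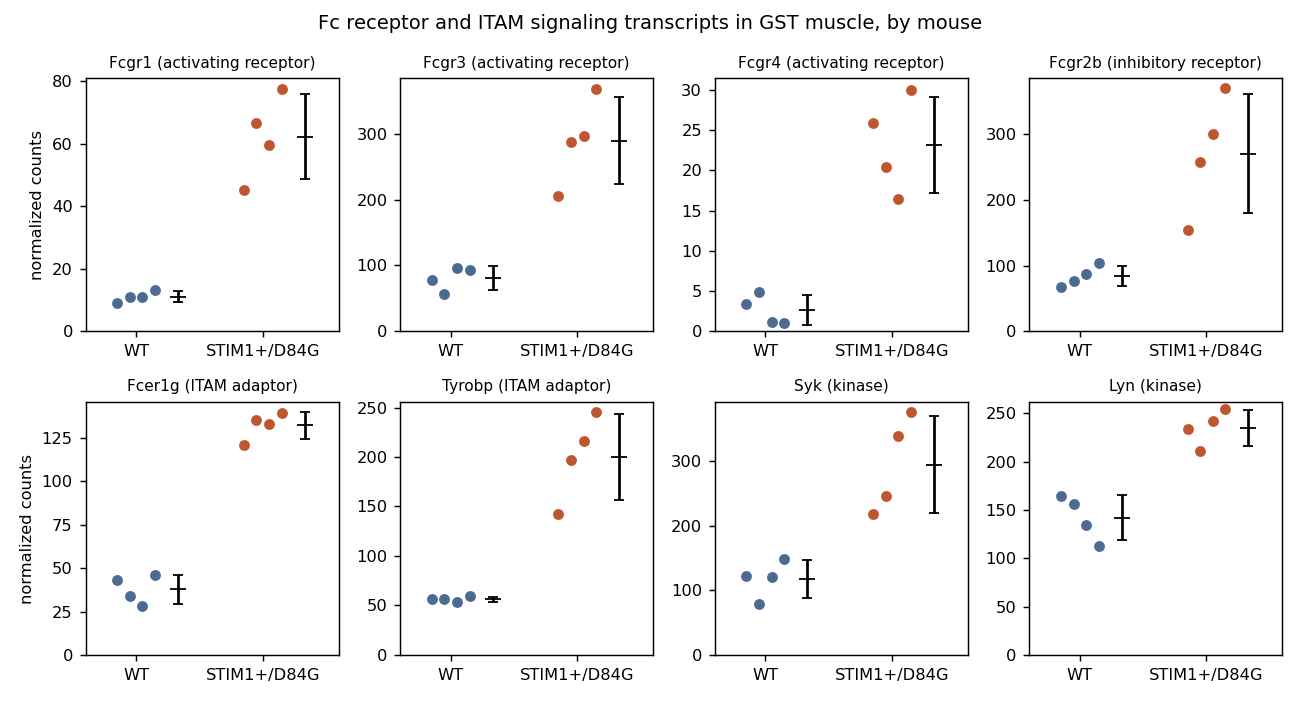
Normalized counts of the 8 transcripts (vertical axes, linear, from 0) in the 4 WT and 4 STIM1+/D84G mice, 1 point per mouse in the order of replicates 1 to 4, with the group mean and SD as a black bar. In all 8 panels every STIM1+/D84G point lies above every WT point, with the narrowest gap in Lyn, where the lowest mutant value is 1.28 times the highest WT value.

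**Figure D2:**
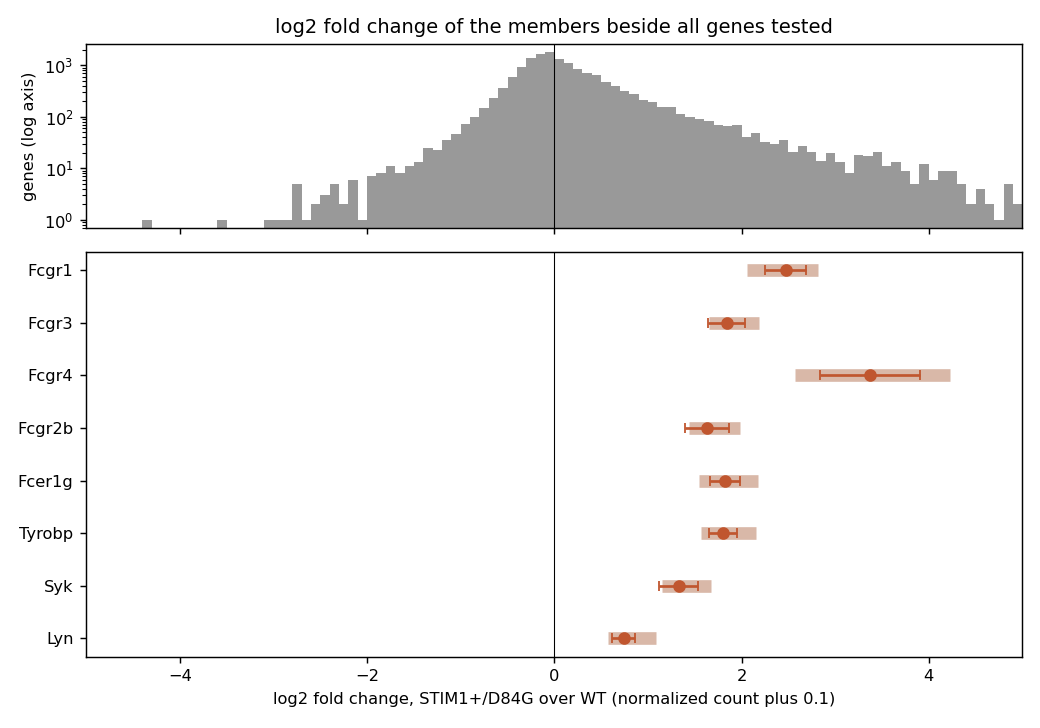
Histogram of the log2 fold change of all 15433 genes (top, log axis for the number of genes, 0 genes below -5 and 50 above 5 not drawn) over the log2 fold change of each member (bottom, points with SE, and a pale band from the lowest to the highest of 22 alternatives). Bands reach from 0.57 for Lyn to 4.23 for Fcgr4, and none crosses 0.

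The mutant mice differed among themselves in a shared order. D84G replicate 4 was the highest mutant library in 8 of 8 transcripts and D84G replicate 1 the lowest in 6 of 8, the exceptions being Fcgr4 (lowest in replicate 3) and Lyn (lowest in replicate 2). Every macrophage marker read below was likewise highest in D84G replicate 4, and all but Aif1 were lowest in D84G replicate 1. How many of all genes share this order was not counted. Among WT mice, replicate 4 was the highest in 5 of 8 transcripts. Summed over the 8 transcripts, the mutant mice counted 1145, 1423, 1603 and 1863 normalized counts, and the WT mice 544, 475, 532 and 577. D84G replicate 1 is also the only mutant library whose column number is that of WT replicates 1 and 2. Among the 5 libraries with the other number, 8 of 8 members were higher at an adjusted p under 0.05 (limma). In the same fit 3342 of all 15433 genes were higher and 3155 lower. The members' log2 differences ran from 0.93 for Lyn to 4.23 for Fcgr4. Between the 3 libraries that share the first number, a single mutant library allows no test. There the members' log2 differences ran from 0.54 for Lyn to 2.64 for Fcgr4.

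Per kilobase of exon, Tyrobp was the most abundant member and Fcgr4 the least abundant in both genotypes. In WT muscle, Tyrobp reached 84.4 ± 3.83 normalized counts per kb, followed by Fcgr3 (46.5 ± 10.3), Fcer1g (43.3 ± 9.54) and Lyn (34.9 ± 5.76, SD, n = 4 each). Fcgr2b (14.5 ± 2.66), Syk (12.6 ± 3.10), Fcgr1 (4.26 ± 0.661) and Fcgr4 (2.06 ± 1.48) came after them. In STIM1+/D84G muscle the order of the means was the same, from 300.4 ± 65.4 for Tyrobp, 167 ± 38.4 for Fcgr3 and 151 ± 8.99 for Fcer1g, through 57.7 ± 4.53 for Lyn, 46.7 ± 15.6 for Fcgr2b and 31.5 ± 8.05 for Syk, to 24.0 ± 5.23 for Fcgr1 and 18.4 ± 4.77 for Fcgr4. Fcgr3 and Fcer1g lay within 1 SD of each other in both genotypes, as did Fcgr2b and Syk, and Lyn and Fcer1g did so in WT and Lyn and Fcgr2b and Syk and Fcgr1 in STIM1+/D84G muscle. Within single libraries, however, Syk lay above Fcgr1 in 8 of 8, whereas Fcgr3 lay above Fcer1g in 5 of 8. Fcgr2b over Syk, Fcer1g over Lyn and Lyn over Fcgr2b each held in 7 of 8 libraries. With the length of the longest transcript in place of all exons, Fcgr2b moved above Lyn in STIM1+/D84G muscle.

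The balance among the 4 receptors was compared as the share of each in their sum per kb. Fcgr3 held the largest share in both genotypes, 68.6% ± 5.63 in WT and 65.2% ± 0.813 in STIM1+/D84G muscle (SD, n = 4 each). The inhibitory Fcgr2b held 21.6% ± 2.75 and 17.9% ± 2.46, Fcgr1 6.40% ± 1.03 and 9.43% ± 0.574, and Fcgr4 3.42% ± 2.90 and 7.495% ± 2.68. Only the share of Fcgr1 was without overlap, with WT mice at 5.57% to 7.76% and STIM1+/D84G mice at 8.92% to 10.2%. In the exact permutation test its 2-sided p was 0.029, adjusted p = 0.114 over the 4 shares, and the others had p = 0.114 (Fcgr2b), 0.286 (Fcgr3) and 0.0857 (Fcgr4). No share passed after adjustment, which at least 3 of the 4 at the smallest p would be needed for.

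**Figure D3:**
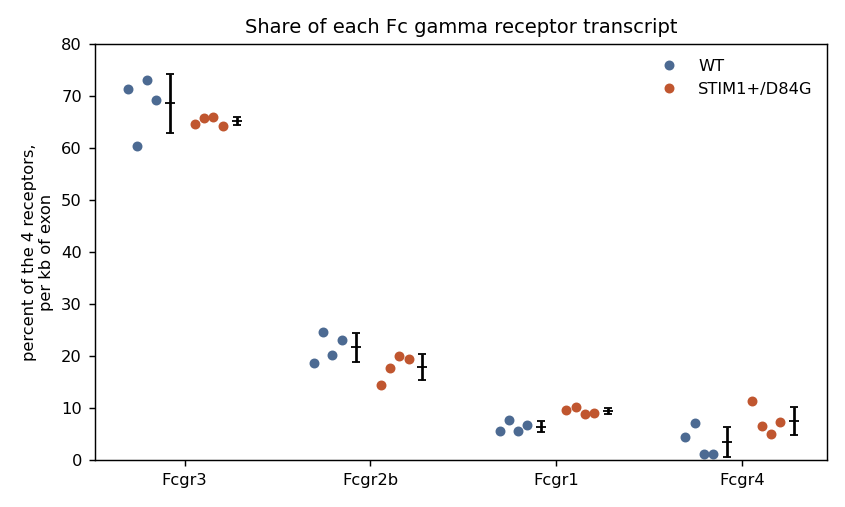
Share of each Fc gamma receptor in the sum of the 4 receptors per kb of exon (vertical axis, percent), 1 point per mouse with the group mean and SD as a black bar. Fcgr3 holds most in every mouse, between 60.4% and 73.1%, and the Fcgr1 points of STIM1+/D84G mice lie above those of WT mice.

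Ratios within a library do not depend on how libraries are scaled. Of the 21 ratios compared by exact permutation, 6 reached the smallest possible 2-sided p of 0.029, and none passed after adjustment (smallest adjusted p = 0.1), which at least 13 ratios at that p would be needed for. Fcgr1 was higher relative to Fcgr2b in every mutant mouse, with a log2 ratio of -3.01 to -2.82 in WT and -2.32 to -1.77 in STIM1+/D84G libraries, a difference of 0.84 (p = 0.029, adjusted p = 0.1, exact permutation). Fcgr3 over Fcgr2b differed by 0.21, with overlapping mice (p = 0.314, exact permutation). Fcgr4 over Fcgr2b differed by 1.74 (p = 0.0571, exact permutation), with 1 to 4 reads of Fcgr4 in each WT library. Tyrobp and Fcer1g differed by -0.024 (p = 0.886) and Syk and Lyn by 0.59 (p = 0.114, exact permutation), both with overlapping mice.

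Macrophage transcripts moved with the members. All 12 listed markers were higher, among them Cd68, Mpeg1, Lyz2 and Emr1 (F4/80), with a median log2 fold change of 1.81, and their sum was 2884 to 3519 normalized counts in WT and 7752 to 13262 in STIM1+/D84G libraries. Ptprc, the CD45 gene of all leukocytes, had a log2 fold change of 1.82. Each member was therefore also set against the mean log2 level of the 12 markers and against Ptprc in the same library. The part of cell number in the members' levels was not tested.

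Against these leukocyte transcripts no member's ratio passed after adjustment. Fcgr3, Fcgr2b, Fcer1g and Tyrobp had the smallest differences, of log2 values between -0.14 and 0.065 against the markers and between -0.18 and 0.023 against Ptprc, p from 0.429 to 0.943 (exact permutation). Fcgr1 was higher by 0.70 against the markers and 0.65 against Ptprc, without overlap (p = 0.029 and adjusted p = 0.1 for each, exact permutation). Fcgr4 differed by 1.59 against the markers and 1.55 against Ptprc, where WT and mutant mice overlapped (p = 0.0571 for each, exact permutation). Lyn, although higher in level, was lower in ratio, by -1.04 against the markers and -1.08 against Ptprc, without overlap (p = 0.029 and adjusted p = 0.1 for each, exact permutation). Syk differed by -0.45 against the markers (p = 0.0857) and by -0.49 against Ptprc (p = 0.029, adjusted p = 0.1, exact permutation). With Csf1r alone in place of the 12 markers, the difference of Fcgr2b was 0.21 in place of -0.14.

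**Figure D4:**
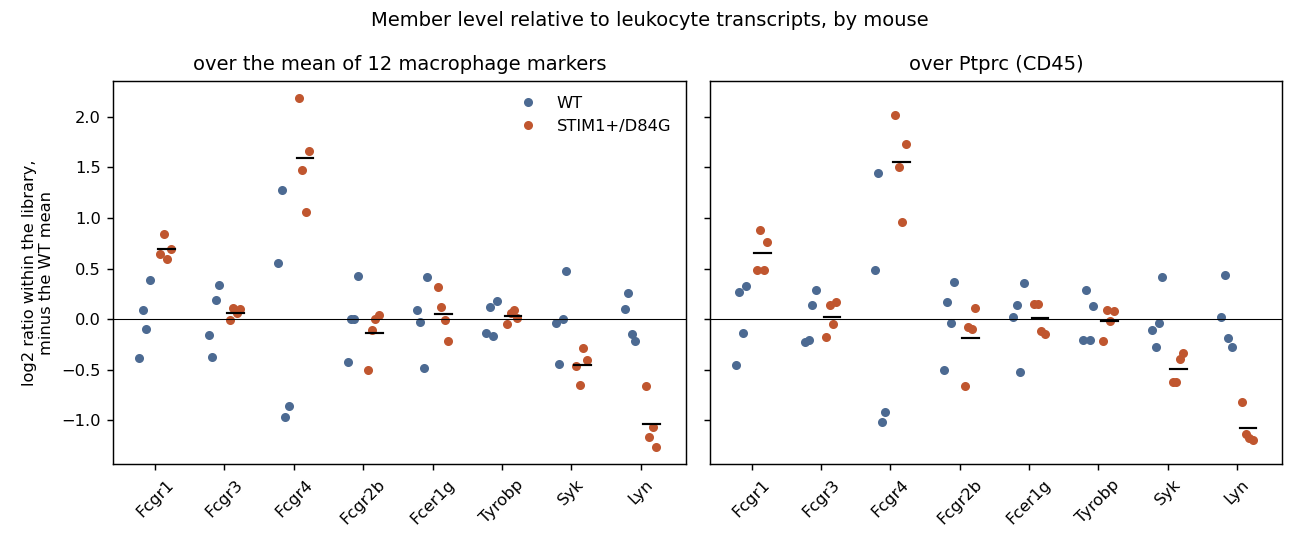
Log2 ratio of each member to the mean of 12 macrophage markers (left) and to Ptprc (right) in the same library, with the WT mean set to 0 (vertical axes), 1 point per mouse and the STIM1+/D84G mean as a black line. Tyrobp, Fcer1g, Fcgr3 and Fcgr2b lie around 0, Fcgr1 points of STIM1+/D84G mice lie above the WT points, and Lyn points lie below them, with mean differences of -1.04 and -1.08.

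Markers of other cells that carry Fc receptors were read as well. Of 10 neutrophil markers only Csf3r and Retnlg were among the listed genes, with a sum of 4.57 to 10.2 in WT and 28.2 to 37.5 in STIM1+/D84G libraries, and both were higher. Of 6 mast cell markers, which stand for the cells in which Fcer1g serves the IgE receptor, Hdc was higher and 5 did not pass, with a sum of 343 to 444 and 333 to 637. Of 6 B and plasma cell markers 2 were listed and neither passed, with sums of 34.3 to 62.9 and 26.4 to 47.2. Of 7 NK cell markers 2 were listed, with sums of 0 to 7.59 and 7.71 to 18.5, and 1 of them, Klrb1c, was higher, from 0 in WT replicates 2 and 3. The part of these cells in the members' levels was not tested.

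The genes around the members were read in 11 lists by role. Of 151 list genes 114 were among the listed genes, and of these 85 were higher, 5 were lower and 24 did not pass the test. The lists were drawn up with results of these data already known, so their counts are a description and not independent evidence of a direction.

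The listed immunoglobulin and pentraxin genes did not move as a block, and of their heavy chain genes only Ighg2b and Ighg2c encode IgG. Ighm, which encodes the heavy chain of IgM and not of IgG, fell. It counted 1759, 2179, 1802 and 1486 in WT and 614, 416, 445 and 466 in STIM1+/D84G muscle, a log2 fold change of -1.90 ± 0.13 (SE, adjusted p = 1.31e-06, limma). The highest mutant value, 614, lay below the lowest WT value, 1486. Igkc, the kappa light chain constant gene, counted 40.02, 6.03, 152 and 24.6 in WT mice and 27.9, 29.0, 59.8 and 30.0 in mutant mice, and the test was not passed (adjusted p = 0.874, limma). The IgG2c gene Ighg2c passed with a log2 fold change of 1.228 but with overlapping mice. Igha, with means of 5.85 in WT and 19.4 in STIM1+/D84G muscle and 0 reads in WT replicates 2 and 3, passed with overlapping mice (adjusted p = 0.0384, limma), but not in edgeR (adjusted p = 0.0877) or DESeq2 (0.0823). Ighg2b had 0 reads in 3 libraries of both groups together and did not pass. Ptx3, a pentraxin that binds Fc gamma receptors, rose from 232 ± 57.0 to 455 ± 78.3 (log2 fold change 0.99). Over the 7 of 15 genes listed, 3 were higher, 1 was lower, and the median log2 fold change was 0.17.

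Receptors that signal through the same adaptors rose with them. Of 23 genes 12 were listed, 9 of them higher and none lower, with a median log2 fold change of 1.79. Trem2, a lipid and debris receptor that pairs with Tyrobp, went from 4.08 ± 2.13 to 40.5 ± 5.72 (log2 fold change 3.39). Klrk1 (NKG2D) went from 2.54 ± 1.58 to 20.2 ± 3.04 and the activating receptor Cd300lb from 12.1 ± 3.65 to 59.4 ± 18.7. Clec4e (Mincle), which pairs with Fcer1g, had 3 reads over the WT libraries and 29 over the mutant ones, a ratio of 7.76 with an exact 95% counting interval of 2.41 to 39.8. It lost its call without D84G replicate 3 and under quantile scaling, with an adjusted p of at most 0.0947. Siglech, a receptor of plasmacytoid dendritic cells, did not pass (adjusted p = 0.778, limma).

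Of the 8 receptors and chains with an ITAM or the related hemITAM of their own, 5 were listed and 3 higher. Clec7a (Dectin-1), a receptor for fungal glucans that engages Syk directly, counted 26.3, 15.7, 14.1 and 11.3 in WT and 69.2, 69.7, 65.6 and 77.5 in STIM1+/D84G muscle, a log2 fold change of 2.13 ± 0.24 (SE, adjusted p = 3.45e-05, limma). The T cell chain Cd3g had 2 reads in WT and 37 in mutant libraries (ratio 14.8, exact 95% counting interval 3.83 to 127), whereas Cd247 and Cd79b did not pass. Of 13 other Fc receptors 2 were listed. Fcgrt, the neonatal receptor that recycles IgG, rose from 1225 ± 47.3 to 1459.6 ± 96.1 (log2 fold change 0.25), and Trim21, a receptor for antibody in the cytosol, passed with overlapping mice (0.55).

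Inhibitory receptors rose as well. Of 17 listed genes from a list drawn up for inhibitory receptors, 15 were higher and none was lower, with a median log2 fold change of 1.90. An ITIM was not searched for in these genes. Clec12a went from 12.1 ± 5.51 to 84.1 ± 5.22 (log2 fold change 2.90), Clec4a2 (DCIR) from 9.61 ± 3.30 to 54.2 ± 13.7 (2.52), the collagen receptor Lair1 from 10.4 ± 3.72 to 42.9 ± 5.70 (2.10) and Siglec5 from 3.31 ± 3.05 to 24.5 ± 12.4 (3.15). Pecam1, which endothelial cells carry in quantity, did not pass, with 1918 ± 131 and 2009 ± 176, nor did Siglecg (adjusted p = 0.0712, limma), which passed with the replicate number as a block (adjusted p = 0.0352).

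Other kinases of the Src and Syk families were read beside Syk and Lyn. The myeloid kinase Fgr went from 10.01 ± 0.977 to 41.2 ± 12.96, a log2 fold change of 1.98 beside 0.74 for Lyn. The widely expressed Src and Fyn had log2 fold changes of 0.80 and 0.61. The lymphocyte kinases Lck and Zap70 and the ubiquitous Yes1 did not pass.

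The enzymes and adaptors that restrain ITAM signaling split. Of 12 listed, 8 were higher and 2 were lower, with a median log2 fold change of 0.36. Ptpn6 (SHP-1), the phosphatase recruited by ITIMs in blood cells, rose from 39.3 ± 9.44 to 129 ± 28.2 (log2 fold change 1.73), and Inpp5d (SHIP1), the lipid phosphatase that Fcgr2b recruits, from 106 ± 10.3 to 233 ± 52.0 (1.11). Dok2 and Ubash3b had log2 fold changes of 1.47 and 1.43. Pag1, which holds the kinase Csk at the membrane, fell from 298 ± 53.9 to 193 ± 7.28 (-0.61), and Ptpn11 (SHP-2) from 4243 ± 225 to 3539 ± 148 (-0.26), but when libraries are scaled to the total of listed genes the sign of Ptpn11 turns (0.088) and Pag1 does not pass (adjusted p = 0.0590).

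Downstream of Syk, 17 of 24 listed genes were higher, 1 was lower, and the median log2 fold change was 0.75. The adaptor Fyb went from 29.9 ± 9.96 to 127 ± 27.7, Pik3r5, a regulatory subunit of PI3K gamma, from 24.8 ± 8.07 to 100.2 ± 20.2, the Syk-binding adaptor Sh3bp2 from 51.8 ± 9.79 to 196 ± 6.30 and the kinase Btk from 16.3 ± 7.38 to 53.2 ± 17.0. Their log2 fold changes were 2.11, 2.05, 1.93 and 1.79. Pik3cd, the catalytic subunit of PI3K delta, fell. It counted 788, 876, 696 and 596 in WT and 437, 440.3, 375 and 425 in STIM1+/D84G muscle, a log2 fold change of -0.81 ± 0.11 (SE, adjusted p = 1.04e-04, limma), and it stayed lower under all 22 alternatives, while Pik3cg of PI3K gamma was higher (1.09).

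Of 12 genes of actin remodeling 9 were higher and 1 was lower, with a median log2 fold change of 1.06. Nckap1l, the hematopoietic subunit of the WAVE complex, went from 78.2 ± 4.32 to 298 ± 63.2, Dock2 from 68.5 ± 11.4 to 229 ± 63.9, Rac2 from 31.9 ± 8.66 to 103 ± 26.3 and Coro1a from 97.3 ± 6.96 to 300.1 ± 54.9. Rac1, the ubiquitous relative of Rac2, had a log2 fold change of -0.27, from 3973 ± 31.2 to 3297 ± 95.1, which turns to 0.080 when libraries are scaled to the total of listed genes. All 5 subunits of the phagocyte NADPH oxidase were higher (median 1.88), led by Cybb, its catalytic subunit, which went from 84.5 ± 15.3 to 377 ± 60.6, and Ncf1 (p47phox), from 50.7 ± 3.38 to 195 ± 43.0. Of 11 other phagocytic receptors 10 were higher (median 1.38), among them the integrin chains Itgax, from 15.9 ± 6.95 to 93.3 ± 31.3, and Itgb2, from 76.5 ± 13.2 to 304 ± 64.4, the scavenger receptor Msr1 (1.85) and the complement receptor C3ar1 (1.85).

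**Figure D5:**
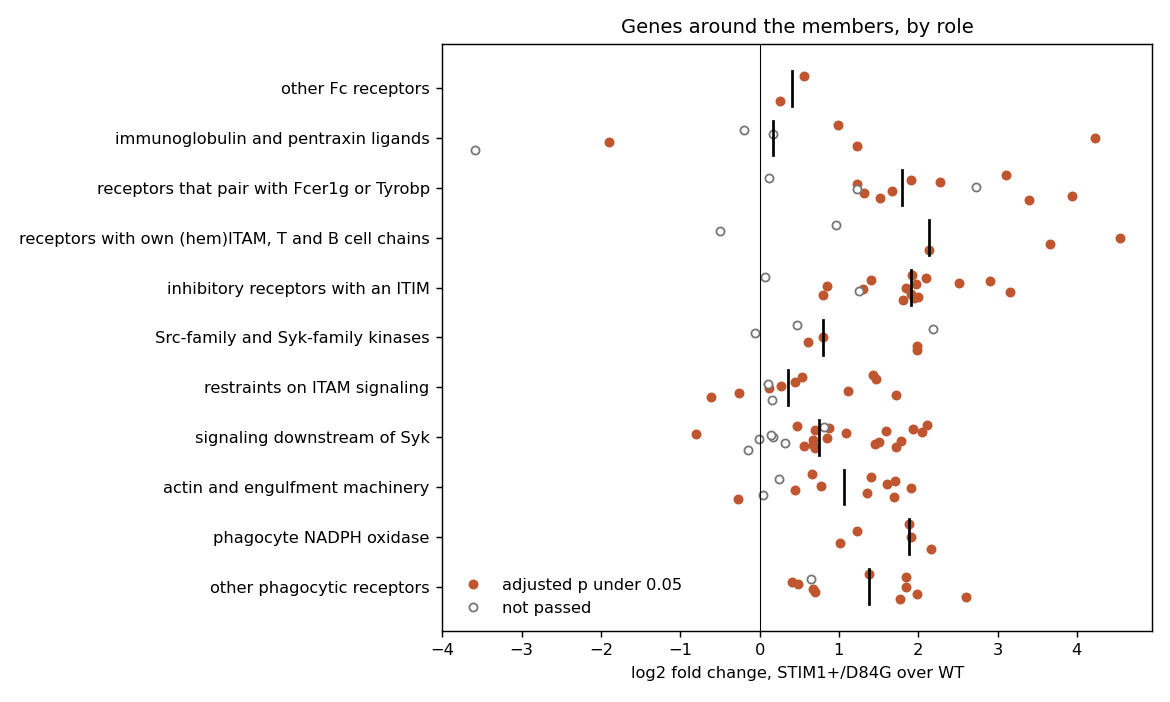
Log2 fold change of STIM1+/D84G over WT (horizontal axis) for the 114 listed genes around the members, 1 point per gene in 11 rows by role, filled where the adjusted p was under 0.05, with the median of each row as a black line. All 5 genes of the phagocyte NADPH oxidase are filled and above 0, and the 5 filled points below 0 are Ighm, Pag1, Ptpn11, Pik3cd and Rac1.

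The genes whose profile over the 8 libraries lay nearest to the members' mean were sought among 12919 other genes with a mean of at least 20. Likeness was the root mean square difference of log2 values, each gene taken relative to its own WT mean. The nearest were Nckap1l (0.0851), Pld4, an endolysosomal nuclease (0.114), Ncf1 (0.118), the inhibitory receptor Lilrb4 (0.123) and the adaptor-paired receptor Cd300ld (0.124). Pld4 counted 82.3, 75.9, 80.2 and 83.9 in WT and 222, 273, 279 and 317 in STIM1+/D84G muscle. D84G replicate 1 was its lowest and replicate 4 its highest mutant library as in most members, an order that the choice by profile favors. Of the members themselves, Tyrobp lay closest to the mean (0.0955), and Fcgr4 (1.26) and Lyn (0.8289) lay farthest from it.

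Of the 8 members, 4 lie together on chromosome 1 of mm10, within 276 kb: Fcgr2b (chr1:170958617-170976547, minus strand), Fcgr4 (chr1:171018920-171029761, plus strand), Fcgr3 (chr1:171051174-171064935, minus strand) and Fcer1g (chr1:171229572-171234365, minus strand). The others are Fcgr1 (chr3:96282909-96293969, minus strand), Tyrobp (chr7:30413760-30417585, plus strand), Syk (chr13:52583173-52648792, plus strand) and Lyn (chr4:3678115-3813122, plus strand). Other listed genes within the chromosome 1 interval, Cfap126, Sdhc, Pcp4l1 and Tomm40l, had log2 fold changes of -0.05, 0.11, 0.26 and -0.14, beside 1.63 to 3.37 for the receptors and Fcer1g of the interval. Unlisted genes of the opposite strand overlap the spans of Fcgr2b (Gm38204) and Lyn (Gm26857, Gm11805, Gm22781 and 9430025C20Rik). Whether exons overlap as well was not examined. Where they do, reads could be told from those of the members only by a count that uses strand.

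For each activating receptor the 250 bases before a RefSeq transcript start are shown because a core motif of myeloid promoters was found close to it, a choice made after the matches were seen. RefSeq (GRCm38.p6) gave promoter windows for 6 of the 8 members, and the capitals mark GAGGAA (or TTCCTC on the other strand), the core bound by the myeloid factor PU.1, TTCNNNGAA, the site of STAT factors, and the interferon-stimulated response element, the site of interferon regulatory factors, searched on both strands:
Fcgr1, chr3:96293970-96294219, minus strand: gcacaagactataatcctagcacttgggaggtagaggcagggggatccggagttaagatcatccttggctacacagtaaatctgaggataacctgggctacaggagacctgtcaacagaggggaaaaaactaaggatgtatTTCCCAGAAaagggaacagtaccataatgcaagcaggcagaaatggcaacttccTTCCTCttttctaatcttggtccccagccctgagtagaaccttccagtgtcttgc
Fcgr3, chr1:171059395-171059644, minus strand: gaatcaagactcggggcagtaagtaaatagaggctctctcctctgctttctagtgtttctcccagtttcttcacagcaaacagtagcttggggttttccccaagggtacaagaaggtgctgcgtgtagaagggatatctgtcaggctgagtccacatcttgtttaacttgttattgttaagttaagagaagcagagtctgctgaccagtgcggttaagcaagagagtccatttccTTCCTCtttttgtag
Fcgr4, chr1:171018676-171018925, plus strand: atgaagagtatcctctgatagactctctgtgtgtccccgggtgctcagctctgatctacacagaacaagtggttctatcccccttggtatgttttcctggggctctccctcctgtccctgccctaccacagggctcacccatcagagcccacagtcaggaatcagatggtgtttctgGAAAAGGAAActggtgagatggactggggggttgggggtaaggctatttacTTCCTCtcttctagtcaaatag
Between TTCCTC and the start lay 49 bases in Fcgr1, 9 in Fcgr3 and 16 in Fcgr4. The start of Fcgr3 used here lies inside the gene as GENCODE spans it, and a second RefSeq window of Fcgr3 (chr1:171059404-171059653) overlaps the one printed, with 0 bases between the same motif and its start. GAGGAA was also found before 1 of 2 starts of Syk and in none of the windows of Fcgr2b and Fcer1g, and 28.3% of 32851 RefSeq promoter windows hold it. Among the 6 members with a window, TTCNNNGAA was found for Fcgr1 (8.30% of all windows hold it) and the interferon-stimulated response element for Fcgr4 (3.44%). The searches and the shares of all windows cover each window as a whole, of which the printed sequence is the first 250 bases. A match is a run of letters and not a shown site of binding.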

How the data were processed

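Libraries of GST muscle from 4 WT and 4 STIM1+/D84G mice were sequenced, grouped by the sample titles. The methods describe mRNA enriched out of total RNA. The methods name a Kapa stranded mRNA kit and paired-end reads of 50 bases, whereas the labels name a SMARTer kit. The build is mm10 per the submitters' processing notes, and the aligner, the counter and its use of strand are not given in the sources used here. The deposited values are named RPKM, but the authors' signal values are gene counts divided by 1 size factor per library: 100% of them were whole multiples of 1 read within 0.01. The design had been set for RPKM, and its test was kept. The authors also deposited their own fold ratio, its log2 value, 2 score columns (a standard error and a test statistic) and p-values, none of which were used.

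The test per gene was that of limma 3.58.1 (R 4.3.3, with a trend) on log2(normalized count + 0.1), a scale on which fold changes of low genes depend on the pseudocount, most of all where libraries hold 0, after a minimum mean of 0.5 that removed no gene, with Benjamini-Hochberg adjustment over 15433 genes. Counts recovered from the steps were tested with edgeR 4.0.16 and DESeq2 1.42.0 as alternatives. The limma procedure was also run on simulated counts in which 200 genes were changed. That is far fewer than were called here, so the simulation does not test how the calls depend on scaling. Ratios and shares were compared by exact 2-sided permutation. Replicate numbers are shared between the genotypes, and after the group means were removed the pairs of the same number correlated at 0.213, 0.161, 0.150 and 0.123 over the 10155 genes whose mean reached 100 (pairs of different number ranged from -0.299 to 0.371, the highest being WT replicate 2 with D84G replicate 1, which share a column number), so a fit with the number as a block was run. Nothing says what a number marks. Sequences came from GENCODE vM21, which held 15289 of the 15433 identifiers, and from RefSeq. The other genes named are up to 4 per list, those with the largest change among genes that passed without overlap, any such gene that went against its list, and the 5 nearest in profile. Genes named beyond these, among them Igkc, Ighg2c, Igha, Ighg2b, Trim21, Siglech, Siglecg, Pecam1, Pik3cg, Cd247, Cd79b and the kinases that did not pass, were chosen after their values were seen. The members and lists were chosen with earlier results of these data known. Some genes of the lists and of the chromosome 1 interval are not reported here.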

Additional observations from a re-analysis of the deposited data

Results flagged for a closer look

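Over 72 groups of 4 values, from members, immunoglobulin and pentraxin genes and ratios, 2 had a library set apart from the other 3. Dixon's criterion was used, where chance gives about 1 in 20. Igkc was set apart in D84G replicate 3, with 59.8 normalized counts beside 27.9, 29.0 and 30.0 in the other mutant mice (gap over range 0.934). The log2 ratio of Lyn to Ptprc was set apart in D84G replicate 1, at -0.27 beside -0.59, -0.63 and -0.65 (gap over range 0.844), still below every WT library.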

How the results depend on the processing

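All 8 members stayed higher at an adjusted p under 0.05 under each of 22 alternatives: other pseudocounts, filters and scalings, edgeR, DESeq2, the column number as a term, each library left out in turn, and, chosen after seeing the data, the 5 libraries of the second column number alone. Their log2 fold changes ran from 0.57 (Lyn, quantile scaling) to 4.23 (Fcgr4, the 5 libraries alone), and the largest adjusted p was 0.0021. With the replicate number as a block, 8 of 8 members were higher, 3888 of all genes were higher and 3778 lower, and no call changed for the 47 other genes named by rule. Of the 170 genes in all lists, 162 kept their call with the block, 5 gained it and 3 lost it. Scaling shifts all genes: beside 3859 higher and 3765 lower with the deposited scaling, 9480 were higher and 761 lower when libraries were scaled to the total of listed genes, and 5318 were higher and 2245 lower when they were scaled on all but the 50 most abundant, with shifts of the median log2 fold change of 0.35 and 0.12, while the members' median was 2.16 and 1.94. Under quantile scaling 3112 were higher and 4154 lower. Scaling to the total turned the log2 fold changes of Ptpn11 (0.088) and Rac1 (0.080). Of 47 other genes named by rule, 41 kept direction and call throughout, while Stim1, Pag1, Clec4e and Cd3e lost their call in at least 1 alternative, Stim1 (adjusted p = 0.129) and Pag1 under scaling to the total. Among ratios, Fcgr2b over the markers was 0.21 with Csf1r alone, and Fcer1g over Ptprc was -0.0064 with a pseudocount of 1, neither past the test in any setting. Fcgr4, with 9 reads in WT, is limited by depth, the meaning of the column number is not known, and nothing in a bulk count separates the alleles or the cells the reads came from.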

Other observations

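Markers of other blood cells were read beside the macrophage list. Of 7 dendritic cell markers, 5 were higher and 2 did not pass, with a median log2 fold change of 1.36. Ccr7, the receptor that guides dendritic cells to lymph nodes, counted 0, 2.41, 2.17 and 1.02 in WT and 10.6, 10.97, 7.71 and 14.98 in STIM1+/D84G muscle, whereas Zbtb46 and Cd209a had log2 fold changes of 0.0073 and -0.0018 and did not pass. Of 5 listed T cell markers 4 were higher, among them the adhesion receptor Cd2 and the interleukin-7 receptor Il7r, which counted 5.72, 7.23, 14.1 and 4.09 in WT and 22.1, 25.9, 24.1 and 25.6 in mutant mice. Both listed platelet markers, Pf4 and Itga2b, were higher, with log2 fold changes of 1.42 and 1.33. Of 5 red cell markers 3 were higher, and 1 of these, Alas2, was without overlap. The part of blood left in the vessels was not tested.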
